A study of Homo sapiens with 10 samples.

Results

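The genes described here are the replication-dependent histone genes, which encode the linker histone H1 and the core histones H2A, H2B, H3 and H4. They were taken by current symbol from the platform annotation, as H1-1 to H1-6 and every numbered H2AC, H2BC, H3C and H4C gene. In all, 72 such genes were named by a probe set. Of these, 58 had a probe set naming that gene alone, out of 18279 genes with such a probe set, with 6 of class H1, 14 of H2A, 17 of H2B, 8 of H3 and 13 of H4. These 58 are the histone genes counted below. RefSeq places 49 of them on chromosome 6, 8 on chromosome 1 and 1 on chromosome 12, and classes H2BC19P as a pseudogene. The other 14 genes appeared only in probe sets that name several genes, and are given apart.

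RNA levels were measured on 10 Affymetrix arrays of A549, a human lung adenocarcinoma line, and lines named AD32, in a study of discodermolide, a natural product that stabilises microtubules. A549 cells in 0.01% DMSO, labelled sensitive, gave 4 arrays, and A549 cells in 32 nM discodermolide, labelled senescent, gave 2. AD32 cells, labelled resistant, gave 3 arrays and were grown in 32 nM discodermolide. The cells named AD32 4E-BP1, after the translation repressor 4E-BP1, were in 0.01% DMSO, are labelled sensitive and gave a single array. So the AD32 4E-BP1 array differs from the AD32 arrays both in the line and in the absence of the drug. The duration of the treatment, and whether AD32 is 1 clone, are not stated. Numbered samples are labelled as biological replicates without saying how they were grown apart, so p-values measure the spread between these samples.

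Replication-dependent histone genes lie in clusters, have no introns, and end their mRNA in a stem-loop instead of a poly(A) tail. Their transcripts accumulate in S phase, when new DNA must be packaged, and are degraded when replication stops. NPAT and CASP8AP2 (FLASH) act at the histone loci, the U7 snRNP proteins LSM10 and LSM11 and the zinc finger protein ZNF473 act in 3′ end cleavage, SLBP binds the stem-loop, and ERI1 trims the mRNA end. Histone promoters of different classes carry different short elements, among them an octamer in H2B promoters and an AAACACA box in H1 promoters.

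Promoter windows from 250 bases before to 50 bases after the start were found for 52 of the 58 genes in RefSeq (build GRCh38.p14). They were searched on both strands for the octamer (ATTTGCAT or ATGCAAAT), the H1 box (AAACACA or TGTGTTT), the TATA box (TATAAA or TTTATA) and the CCAAT box (CCAAT or ATTGG). The 250 bases before the start of 4 genes are printed 5′ to 3′ in the sense of the gene, with matches in capitals. They are H1-4, which had the smallest p-value below, H2BC14, among the widest ranging genes, and H2BC12 and H4C8. H2BC12 and H4C8 stood higher in discodermolide on the probe sets naming them alone. H1-4 is at chr6:26156079-26156328 on the plus strand, H2BC14 at chr6:27814772-27815021 on the plus strand, H2BC12 at chr6:27146856-27147105 on the minus strand and H4C8 at chr6:26285535-26285784 on the minus strand.
H1-4: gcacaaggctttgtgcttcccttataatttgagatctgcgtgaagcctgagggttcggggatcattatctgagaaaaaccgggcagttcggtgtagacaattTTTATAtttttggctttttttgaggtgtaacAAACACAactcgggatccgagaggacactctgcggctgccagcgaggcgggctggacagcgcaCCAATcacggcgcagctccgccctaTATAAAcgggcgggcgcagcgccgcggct
H2BC14: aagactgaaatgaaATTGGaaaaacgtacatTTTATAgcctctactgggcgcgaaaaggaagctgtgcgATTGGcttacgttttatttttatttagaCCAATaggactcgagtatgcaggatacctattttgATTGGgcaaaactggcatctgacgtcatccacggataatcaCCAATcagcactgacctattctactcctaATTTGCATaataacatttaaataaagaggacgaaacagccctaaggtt
H2BC12: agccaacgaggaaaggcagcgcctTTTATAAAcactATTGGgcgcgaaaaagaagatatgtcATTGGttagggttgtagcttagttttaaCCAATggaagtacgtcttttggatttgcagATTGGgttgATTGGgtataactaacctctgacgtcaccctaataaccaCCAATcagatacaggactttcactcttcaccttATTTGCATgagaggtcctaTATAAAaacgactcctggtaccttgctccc
H4C8: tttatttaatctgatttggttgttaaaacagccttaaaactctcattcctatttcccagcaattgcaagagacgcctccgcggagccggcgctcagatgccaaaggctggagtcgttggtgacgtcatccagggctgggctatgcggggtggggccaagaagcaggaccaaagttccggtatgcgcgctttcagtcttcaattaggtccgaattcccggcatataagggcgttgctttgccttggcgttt
In the H2BC12 window the runs TTTATA and TATAAA overlap near the 5′ end, and the H4C8 window holds no match to any of the 4 motifs.

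The octamer was present in 13 of 16 H2B and 10 of 13 H2A windows and in 0 of 6 H1, 0 of 6 H3 and 0 of 11 H4 windows, against 2.19% of 27305 genes. The H1 box was present in 6 of 6 H1 windows and 1 of 13 H2A windows, and in none of the H2B, H3 or H4 windows, against 6.94% of genes. A TATA box was found in 34 of 52 windows, against 14% of genes. A CCAAT box was found in 44 of 52, against 39.7% of genes, and 8 of the 11 H4 windows were those without it. H2BC12 and H2BC14 thus both hold an octamer and CCAAT boxes, although their estimates in discodermolide had opposite signs on the probe sets naming them alone. A match is a description of the sequence and was not tested as a binding site.

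All levels below are deposited log2 signals, and adjusted p-values are from limma with Benjamini-Hochberg adjustment over all 18279 genes, with a threshold of 0.05. Array medians lay between 6.50 and 6.63, lower quartiles between 4.77 and 4.94 and upper quartiles between 8.14 and 8.39. Of the histone genes, 10 lay above the upper quartile on every array. The 7 genes below the lower quartile on every array were H1-1, H1-6, H2AC1, H2AC8, H2AC14, H2BC1 and H4C7. The files carry no detection call, so such levels were read only as low. H4C14 and H4C15 had the same value on every array, so the 58 genes give 57 distinct measurements. The epithelial keratins KRT8 (12.67 to 13.73) and KRT18 (13.03 to 14.002) were high on all arrays, while EPCAM (3.30 to 3.87) and the lung factor NKX2-1 (4.58 to 5.11) were low. Means of 11 leukocyte and endothelial markers lay between 4.42 and 4.72, and those of 10 fibroblast markers between 5.39 and 5.82. KRT7, another keratin, differed between lines, at 11.78 on average in AD32 against 7.13 in A549 in DMSO (log2 difference 4.65, SE 0.13, limma adjusted p = 8.185e-07). On the AD32 4E-BP1 array KRT7 was at 7.35, near A549 in DMSO and far below AD32. The reason was not tested.

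In 2 of the groups 1 array stood apart from the others. A549 DMSO replicate 1 had a mean of 7.04 over the 58 histone genes, against 7.83, 7.78 and 7.71 on replicates 2 to 4. AD32 replicate 3 had a mean of 7.64, against 6.50 and 6.77 on AD32 replicates 1 and 2. The treated A549 arrays stood at 6.62 and 6.61 and the AD32 4E-BP1 array at 7.64. Means of 36 genes of DNA replication and S phase set the same arrays apart by a larger margin. They were 7.02 on A549 DMSO replicate 1 against 9.76, 9.63 and 9.61 on replicates 2 to 4, and 9.55 on AD32 replicate 3 against 6.83 and 7.17 on replicates 1 and 2. On the treated arrays they were 7.25 and 7.39, and 9.64 in AD32 4E-BP1. Means of 30 G2/M genes were 6.86 on A549 DMSO replicate 1 and 9.88 to 10.03 on replicates 2 to 4, and 9.64 on AD32 replicate 3 against 5.35 and 6.38. In bulk RNA a smaller number of cells in S phase and less histone RNA per cell cannot be told apart. Histone calls in discodermolide and in AD32, each against A549 in DMSO, are given with and without these 2 arrays. For the other gene lists, fits that leave out either array are not given. The part of these proliferation genes in the histone differences was not tested.

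**Figure D1:**
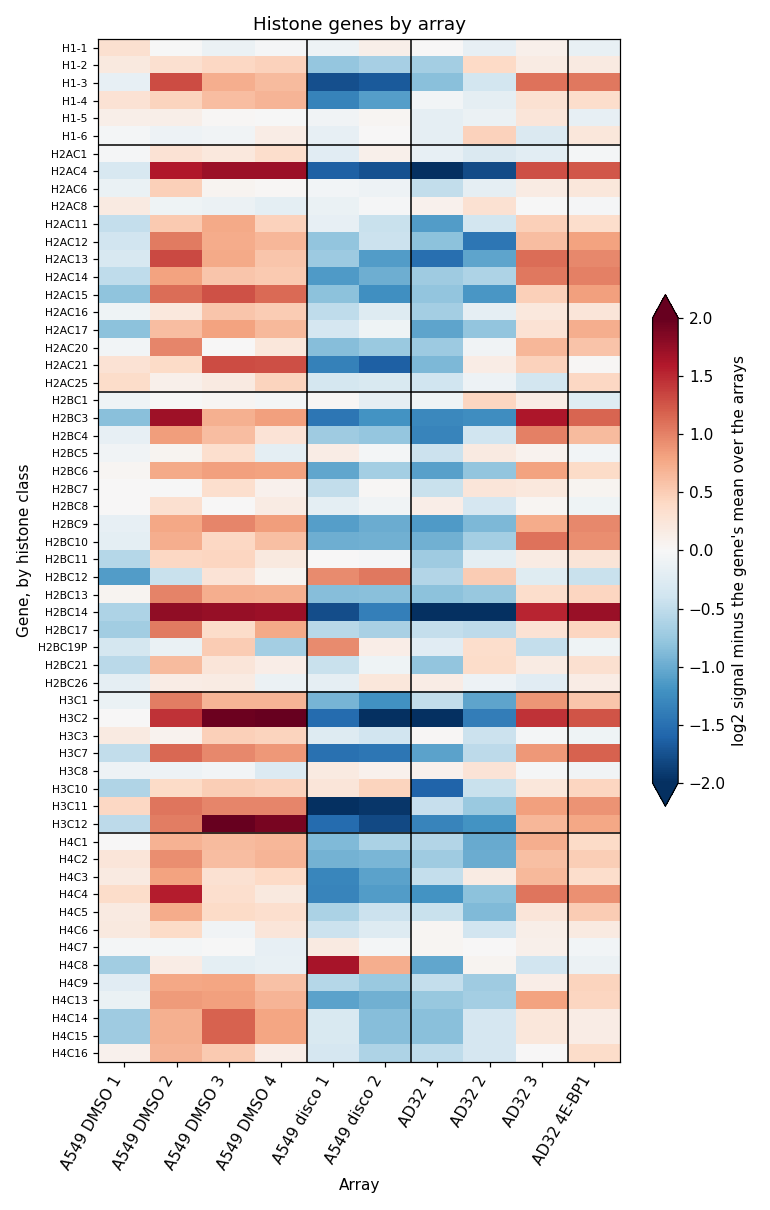
Log2 signal of each of the 58 histone genes (rows, by class) on each of the 10 arrays (columns, by group), shown as the difference from that gene's mean over the arrays; colours end at -2 and 2. Most genes are low on both treated A549 arrays and on AD32 replicates 1 and 2, while H2BC12 and H4C8 are high on the treated arrays.

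**Figure D2:**
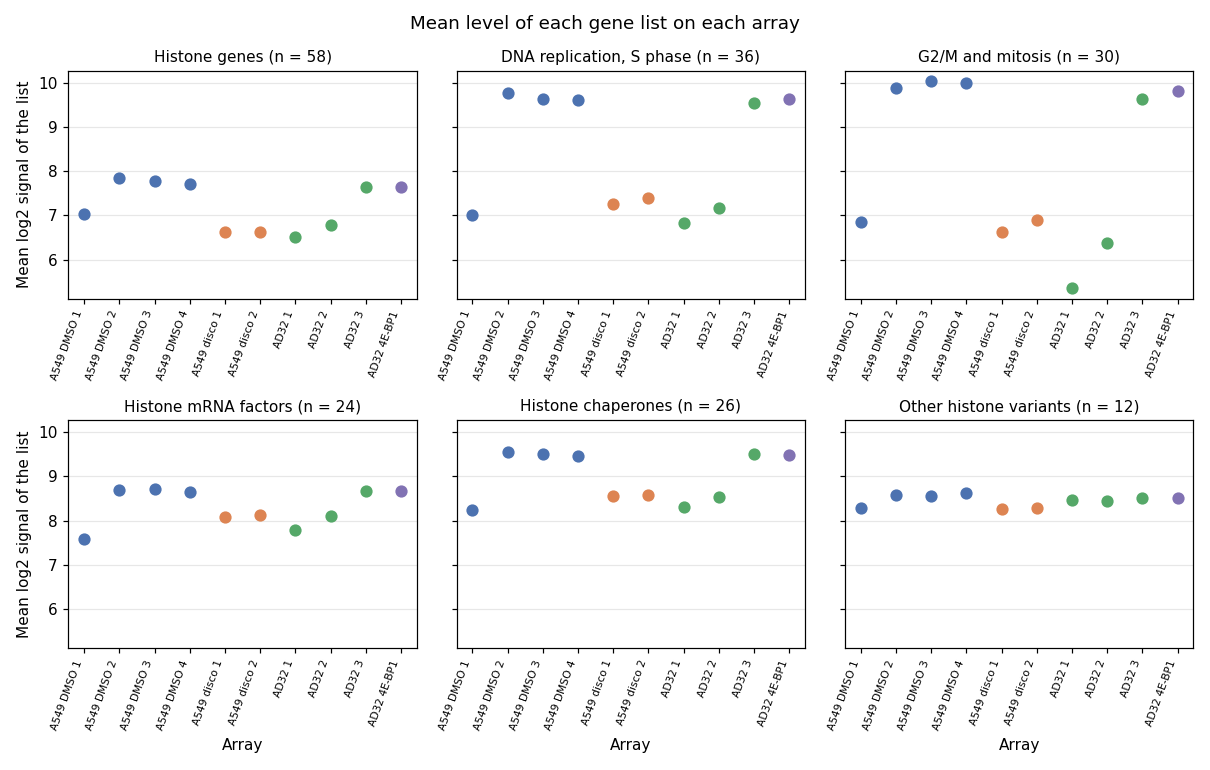
Mean log2 signal of 6 gene lists (panels) on each array (points, coloured by group). The histone mean is 7.04 on A549 DMSO replicate 1 and 6.62 and 6.61 on the treated arrays, whereas the mean of the S phase list is 7.02 on A549 DMSO replicate 1, below the 7.25 and 7.39 of the treated arrays.

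The first comparison asks which histone transcripts differ between A549 cells in discodermolide and in DMSO. Most stood lower in the drug. The estimate was below 0 for 50 of 58 genes, with a median log2 difference of -1.07, beside 0.02 over all genes tested. Linker histone H1-4 and the core histone gene H3C11 passed the threshold, both lower, where 0.0219% of all genes (4 of 18279) were called lower and 0.372% in either direction. Without adjustment, 30 histone genes had p under 0.05 in the lower direction, against 2.88% of all genes, and 2 in the higher, against 8.24%. Both treated arrays lay below all 4 DMSO arrays for 35 genes, against 7.71% of all genes, and above them for H2BC12, H3C8 and H4C8, against 15.2%.

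H1-4 encodes a linker histone, the proteins that bind the DNA entering and leaving the nucleosome. Its level was 12.37, 12.53, 12.70 and 12.76 on the DMSO arrays and 10.75 and 10.99 on the treated arrays. The groups did not overlap, and A549 DMSO replicate 1 was the lowest of its group by a small margin. H1-4 fell by 1.72 on the log2 scale, or 3.30-fold (SE 0.18, limma adjusted p = 0.00796). Without A549 DMSO replicate 1 the difference was -1.80 (limma adjusted p = 0.004037), and without either of the treated arrays the call was lost, with limma adjusted p = 0.1053 and 0.0956.

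Of the other linker genes, H1-3 stood at 8.87, 10.34, 9.76 and 9.68 in DMSO and at 7.29 and 7.37 in discodermolide. Its difference of -2.34 (SE 0.52, limma adjusted p = 0.115) did not pass, although the groups did not overlap. H1-2 was at 8.60, 8.73, 8.83 and 8.88 against 7.63 and 7.75, also without overlap. H1-1, H1-5 and H1-6 lay at 4.89 or below on all arrays and their groups overlapped. The median difference of the 6 H1 genes was -0.57.

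H3C11 encodes histone H3, a core histone whose tail carries many regulatory marks. Its levels were 11.51, 12.17, 12.07 and 12.07 in DMSO and 9.08 and 9.15 in discodermolide. Both treated arrays lay far below every DMSO array. H3C11 fell by 2.84 on the log2 scale, or 7.14-fold (SE 0.39, limma adjusted p = 0.02505), and by 2.98 without A549 DMSO replicate 1 (limma adjusted p = 0.0103). The call was lost without any 1 of DMSO replicates 2, 3 and 4 (limma adjusted p from 0.08351 to 0.09685) or of the treated arrays (0.2032 and 0.2724).

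H3C2 had the widest range of all the histone genes and was picked after its values were seen. It was at 9.10, 10.54, 11.06 and 11.18 in DMSO and at 7.54 and 7.03 in discodermolide, a difference of -3.18. H3C12 was at 6.52, 8.06, 9.05 and 8.94 against 5.50 and 5.24. For both genes A549 DMSO replicate 1 lay between the treated arrays and the other DMSO arrays. H3C10 differed from these, at 7.54, 8.53, 8.64 and 8.61 against 8.38 and 8.59, so that the treated arrays lay within the DMSO range. H3C8 was low throughout, at 4.69 to 4.90 in DMSO and 5.14 and 5.05 in discodermolide. The 8 H3 genes had a median difference of -1.86.

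All 14 H2A genes had an estimate below 0, with a median of -0.88, and the treated arrays lay below all DMSO arrays for 9 of them, namely H2AC4, H2AC12 to H2AC16, H2AC20, H2AC21 and H2AC25. H2AC21 had the smallest p of the class, with 10.97, 11.06, 11.98 and 11.97 in DMSO and 9.34 and 9.04 in discodermolide. The groups lay apart, but the difference of -2.31 (SE 0.42, limma adjusted p = 0.0667) missed the threshold. H2AC4 was at 8.94, 10.87, 10.97 and 10.97 against 7.63 and 7.52. Its DMSO replicate 1 again lay between the other arrays of its group and the treated arrays.

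The 17 H2B genes were mixed, with 13 estimates below 0 and a median of -0.38. H2BC13 had the smallest p, at 6.72, 7.66, 7.38 and 7.38 in DMSO and 5.81 and 5.83 in discodermolide. Its arrays did not overlap, and its difference was -1.47 (SE 0.35, limma adjusted p = 0.1445). H2BC14 was at 10.16, 12.54, 12.51 and 12.48 against 8.997 and 9.40. For H2BC12 the order was turned, with 8.37, 9.03, 9.75 and 9.53 in DMSO and 10.42 and 10.53 in discodermolide. Its difference of 1.30 did not pass (limma adjusted p = 0.255). A probe set naming H2BC12 together with H2BC12L, H2BC17 and H2BC5 had the opposite sign, at -1.31, so the direction for H2BC12 depends on the probe set. H2BC5, H2BC26 and the pseudogene H2BC19P also had estimates at or above 0, with overlapping arrays.

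Among the 13 H4 genes the median difference was -1.07. H4C3 had the smallest p, at 11.06, 11.69, 11.18 and 11.28 in DMSO and 9.57 and 9.81 in discodermolide. The treated arrays were clearly the lowest, and the difference was -1.61 (SE 0.29, limma adjusted p = 0.0667). H4C8 went the other way, at 8.28, 9.13, 8.78 and 8.83 in DMSO against 10.63 and 9.70 in discodermolide. Both treated arrays were above all DMSO arrays but lay 0.92 apart from each other. The difference of 1.41 (SE 0.36, limma adjusted p = 0.171) did not pass the threshold, and leaving out 1 treated array moved it between 0.95 and 1.87. H4C4 was at 8.63, 9.83, 8.59 and 8.45 in DMSO, where replicate 2 was high, and at 6.94 and 7.14 in discodermolide.

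A549 DMSO replicate 1 stood apart both from the treated arrays and from its own group. Over the histone genes the median of the treated mean minus replicate 1 was -0.50. The median of replicate 1 minus the mean of DMSO replicates 2 to 4 was -0.68. Both treated arrays were below A549 DMSO replicate 1 for 38 of 58 genes (65.5%), against 38.6% of all genes. For the S phase list the same held for 7 of 36 genes (19.4%). For 44 histone genes the treated arrays lay below DMSO replicates 2 to 4, against 20% of all genes. In 30 of these 44, A549 DMSO replicate 1 lay between, in 9 at or below the higher treated array, and in 5 at or above the lowest of the other DMSO arrays. In the S phase list 36 of 36 genes had the treated arrays below DMSO replicates 2 to 4, with replicate 1 between in 7 and at or below the higher treated array in 29. Without A549 DMSO replicate 1 the histone median was -1.26 and 13 histone genes were called, all lower, where 0.99% of all genes were called lower and 3.52% in either direction. These were H1-3, H1-4, H2AC15, H2AC21, H2BC13, H2BC17, H3C7, H3C11, H3C12, H4C3, H4C9 and the pair H4C14 and H4C15.

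**Figure D3:**
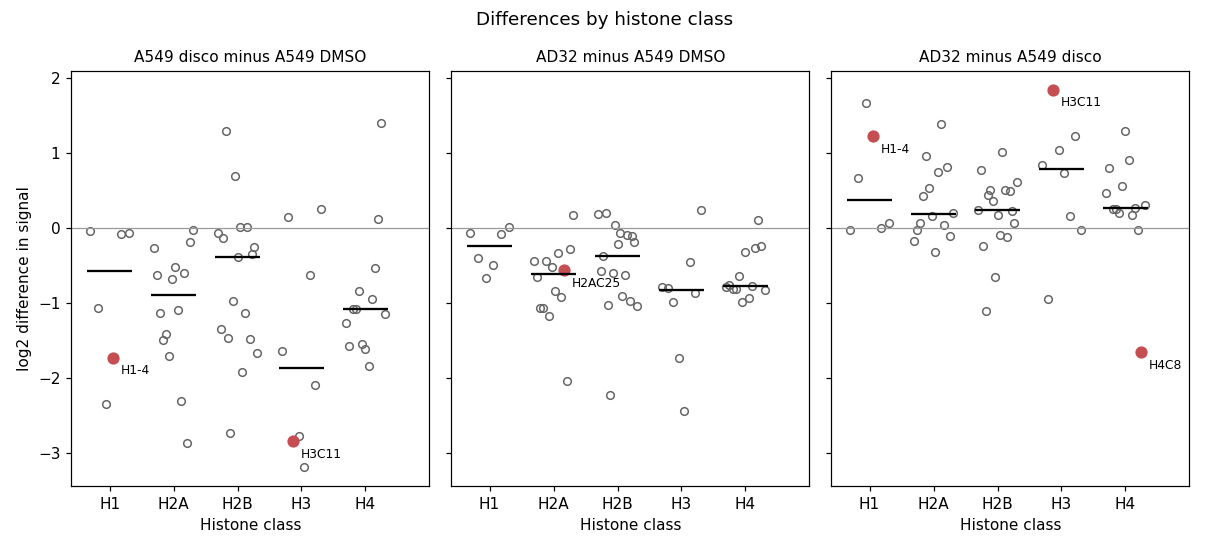
Log2 difference of each histone gene (circles) by class in 3 comparisons (panels), with class medians as bars; filled red circles passed an adjusted p of 0.05. In the first panel the H3 genes have the lowest median (-1.86) and H2B the highest (-0.38).

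Probe sets naming several histone genes were fitted in a table of their own, of 1720 probe sets. In all, 20 such probe sets named a histone gene, in 13 combinations, and 4 of them also named a gene outside the histone set. In this comparison 3 of the 20 passed the threshold, against 1.51% of the table in either direction, 0.174% lower and 1.34% higher. The H4C11/H4C12 probe sets were both lower. One was at 9.42, 9.39, 9.24 and 8.998 in DMSO and 8.06 and 7.82 in discodermolide (log2 difference -1.32, SE 0.24, limma adjusted p = 0.03378). The other was at 8.001, 7.93, 7.75 and 7.57 against 6.66 and 6.64 (-1.16, SE 0.22, limma adjusted p = 0.03954). On neither was A549 DMSO replicate 1 the lowest of its group. The probe set naming H3C11 and H3C6 was higher, at 5.36, 4.71, 5.005 and 5.11 in DMSO and 6.11 and 6.31 in discodermolide (1.16, SE 0.21, limma adjusted p = 0.03378). This is opposite in sign to the probe set naming H3C11 alone. All 3 of these calls were lost without either treated array, and without any 1 of DMSO replicates 2, 3 and 4 or AD32 replicate 1. In the other comparisons none of the 20 passed the limma threshold, where 0.756% of the table was called in AD32 against A549 in DMSO, 0.174% in AD32 against treated A549, and 0% in both comparisons of AD32 4E-BP1. Their differences ran from -1.75 to 0.22 in the first (smallest limma adjusted p = 0.0589, for H4C11/H4C12) and from -1.08 to 0.88 in the second (0.1426, for H3C11/H3C6). In AD32 4E-BP1 they ran from -0.36 to 1.43 against AD32 and from -0.73 to 0.40 against A549 in DMSO, with limma adjusted p at or above 0.7711 and 0.9993.

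For the remaining several-gene probe sets no adjusted p was under 0.05. The 4 probe sets of H3C13/H3C15/H3C14, of which 2 are identical, had differences of -2.61 (SE 0.55, limma adjusted p = 0.06279), -1.42 (SE 0.47, 0.1694) and -1.01 (SE 0.33, 0.1681). The identical pair naming H2AC19, H2AC21, H2AC20 and H2AC18 had -1.38 (SE 0.46, limma adjusted p = 0.1701). H2BC15/H2AC15 had -1.85 (SE 0.54, 0.1427), H2BC12/H2BC12L/H2BC17/H2BC5 -1.31 (SE 0.53, 0.2601), and H2BC19P/H2BC20P/H2BC21 -1.12 (SE 0.32, 0.1299), with limma adjusted p in the last place. H3C10/H2AC13 stood at -0.91 (SE 0.56, limma adjusted p = 0.5321) and H3C4/H2AC7 at -0.74 (SE 0.23, 0.1639). The identical H4C15/H4C14 pair was higher by 0.81 (SE 0.28, limma adjusted p = 0.1759), while H4C14 and H4C15 by their own probe sets had estimates below 0. Probe sets with H2BC18 and H2BP1 ran both ways, at -1.47 and 0.58, and at 0.23 (SE 0.40, limma adjusted p = 0.9507) where H2BC21 was also named. H2BC18/FCGR1BP was at -0.01. Such probe sets can share signal among near-identical copies, so none is a level of a single gene.

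H2A and H2B genes often lie head to head with a shared promoter region. By their RefSeq starts, 9 such pairs were measured on both sides, with starts 215 to 248 bases apart. The pair H2AC13 and H2BC13 had differences of -1.49 and -1.47 in discodermolide against DMSO. H2AC14 and H2BC14 had -1.40 and -2.72, although H2AC14 was below the lower quartile on all arrays. In H2AC6 and H2BC4 they were -0.18 and -1.13, and in H2AC25 and H2BC26 -0.60 and 0.02. The 5 remaining pairs lay between -1.09 and -0.02 on both sides, so partners ranged from near equal to over 1 log2 unit apart.

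The next comparison sets the AD32 line, grown in the drug, against A549 in DMSO. The estimate was below 0 for 51 of 58 histone genes, with a median of -0.61, beside 0.01 over all genes. H2AC25 alone passed the threshold, where 2.19% of all genes were called lower, 3.52% higher and 5.72% in either direction. That 1 of 58 is near the background share. With H2AC25 included, 17 histone genes had an unadjusted p under 0.05 in the lower direction, against 8.49% of all genes, and 0 in the higher, against 11.2%. All 3 AD32 arrays lay below all 4 DMSO arrays for H2AC1, H2AC25, H3C3 and H4C16, against 6.48% of all genes. They lay above them for H3C8 and H4C7, against 8.9%. The first share was near its background and the second below it.

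H2AC25, an H2A gene outside the large cluster on chromosome 6, was at 6.97, 6.69, 6.78 and 7.03 in DMSO and 6.20, 6.50 and 6.23 in AD32. The arrays did not overlap, and A549 DMSO replicate 1 and AD32 replicate 3 were not apart from their groups. The gene fell by 0.56 on the log2 scale, or 1.47-fold (SE 0.14, limma adjusted p = 0.04762). The call was lost without any 1 AD32 array (limma adjusted p from 0.05784 to 0.1508), any 1 treated array (0.08739), or DMSO replicate 2, 3 or 4 (0.05862 to 0.1448). In discodermolide H2AC25 was at 6.25 and 6.29, so its levels in AD32 and in treated A549 overlapped.

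Most histone genes spread widely within AD32. AD32 replicate 3 was above AD32 replicates 1 and 2 for 42 of 58 genes (72.4%), against 31.5% of all genes. The median gaps were 1.06 to replicate 1 and 0.62 to replicate 2, and in the S phase list 2.65 and 2.37. H2BC14 was at 8.50 and 8.32 on AD32 replicates 1 and 2 and 12.30 on replicate 3, and H3C2 at 5.85, 7.70 and 10.53. For both genes the first pair of arrays lay below all A549 DMSO arrays and the third did not.

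The smallest p in each other class did not pass in AD32 against A549 in DMSO. H2BC13 was at 5.85, 5.90 and 7.02 in AD32 (log2 difference -1.03, SE 0.31, limma adjusted p = 0.0985). H4C16 was at 5.52, 6.11, 5.96 and 5.57 in DMSO and 4.93, 5.11 and 5.44 in AD32 (-0.63, SE 0.19, limma adjusted p = 0.1021). H1-4 was at 12.03, 11.90 and 12.39 (-0.49, SE 0.16, limma adjusted p = 0.1285), and H3C11 at 10.63, 10.35 and 11.92 (-0.98, SE 0.34, limma adjusted p = 0.1455). In each of these 4 genes AD32 replicate 3 was the highest of its group. Leaving it out gave 21 calls, all lower, where 4.45% of all genes were called lower and 10.8% in either direction. It put H1-4 at -0.63 (limma adjusted p = 0.04142) and H3C11 at -1.46 (limma adjusted p = 0.003624), with a median of -1.03. Leaving out A549 DMSO replicate 1 gave 11 calls, all lower, where 6.14% of all genes were called lower and 11.8% in either direction, and a median of -0.79.

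AD32 and treated A549 were both in 32 nM discodermolide, and their comparison asks how the lines differ in the drug. The estimate was higher in AD32 for 43 of 58 histone genes, with a median of 0.27, beside 0.01 over all genes. H1-4 and H3C11 passed in the higher direction, where 1.28% of all genes were called higher, and H4C8 in the lower direction, where 2.46% were (3.74% in either). Without adjustment 6 histone genes had p under 0.05 in the higher direction, against 5.77% of all genes, and 2 in the lower, against 9.71%. The first share was above its background and the second below it, as a description. Arrays did not overlap for 13 genes with AD32 higher, against 14.4% of all genes, and for H2BC12, H3C10 and H4C8 with AD32 lower, against 18%.

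H1-4 was at 12.03, 11.90 and 12.39 in AD32 and 10.75 and 10.99 in treated A549. The groups did not overlap, and the gene was 2.36-fold higher (log2 difference 1.24, SE 0.19, limma adjusted p = 0.009998). Without AD32 replicate 3 the difference was 1.09 (limma adjusted p = 0.01208). H3C11 was at 10.63, 10.35 and 11.92 against 9.08 and 9.15, 3.61-fold higher (1.85, SE 0.41, limma adjusted p = 0.04304). It was 1.38 higher without AD32 replicate 3 (limma adjusted p = 0.01307). The probe set naming H3C11 and H3C6 had the opposite sign here too, at -1.08 (limma adjusted p = 0.1426). On the probe sets of H1-4 and H3C11 alone, the AD32 values lay between those of treated A549 and the upper end of A549 in DMSO. Both calls were lost without either treated array, and that of H3C11 also without AD32 replicate 1 or DMSO replicate 2, 3 or 4 (limma adjusted p from 0.07142 to 0.07884 and, for AD32 replicate 1, 0.07474).

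H4C8 was at 7.94, 9.02 and 8.59 in AD32 and 10.63 and 9.70 in treated A549, 3.14-fold lower in AD32 (log2 difference -1.65, SE 0.38, limma adjusted p = 0.04872). Its AD32 levels overlapped those of A549 in DMSO. The call was lost without either treated array (limma adjusted p = 0.3691 and 0.09543), without AD32 replicate 1 (0.1205) or 3 (0.0617), and without DMSO replicate 2, 3 or 4 (0.06927 to 0.08922). The H4C8 call was also lost with arrays centred on their median, with only the groups compared, and with the replicate block. Averaging A549 DMSO replicates 3 and 4 lost it too. H2BC12, the H2B gene of smallest p, was at 8.90, 9.98 and 9.24 in AD32 against 10.42 and 10.53 (-1.10, SE 0.42, limma adjusted p = 0.2285). H2AC21 was at 9.78, 10.84 and 11.14 against 9.34 and 9.04 (1.40, SE 0.44, limma adjusted p = 0.1435). The arrays of these 2 genes did not overlap either.

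**Figure D4:**
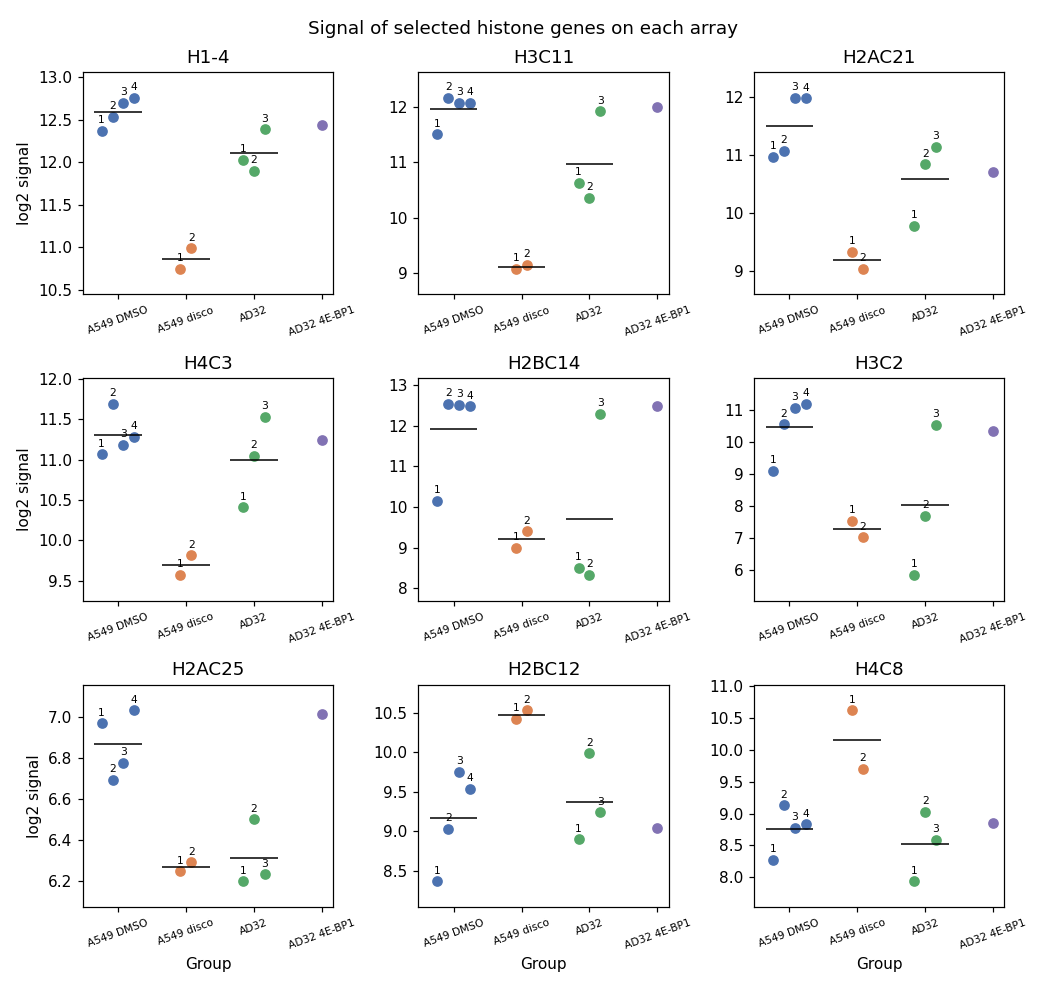
Log2 signal of 9 histone genes on each array (points, with replicate numbers), by group, with group means as lines; each panel has its own axis range. H1-4 and H3C11 are lowest on the 2 treated A549 arrays, H2BC12 and H4C8 are highest there, and H2BC14 and H3C2 separate AD32 replicate 3 from AD32 replicates 1 and 2.

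AD32 4E-BP1 had a lone array, and its 2 comparisons borrow the spread of the groups with replicates. Against AD32 the estimate was higher for 50 of 58 histone genes, with a median of 0.64, beside -0.03 over all genes. None passed the limma threshold, where 0.919% of all genes were called. In the higher direction 2 had an unadjusted p under 0.05, against 4.2% of all genes, and in the lower 0, against 5.27%. The array lay above all AD32 arrays for 21 histone genes, against 23.9% of all genes, and below them for 4, against 27.7%. The first of these shares was above the background and the second below it. H2AC25 had the smallest p, with 7.02 in AD32 4E-BP1 against 6.20, 6.50 and 6.23 in AD32 (log2 difference 0.71, SE 0.21, limma adjusted p = 0.2372). The smallest p of the other classes belonged to H4C5, H2BC9, H3C11 and H1-3. H4C5 was at 8.87 against 7.92, 7.48 and 8.61 (0.87, SE 0.38, limma adjusted p = 0.5246). H2BC9 was at 8.88 against 6.80, 7.03 and 8.66 (1.39, SE 0.67, limma adjusted p = 0.587). H3C11 was at 12.001 (1.03, SE 0.52, limma adjusted p = 0.6129) and H1-3 at 10.10 against 8.20, 8.67 and 10.12 (1.10, SE 0.69, limma adjusted p = 0.7006). Over the 58 genes the median difference between the AD32 4E-BP1 array and AD32 replicate 3 was -0.03. Without AD32 replicate 3, 1.32% of all genes were called higher and 3.59% in either direction, and 5 histone genes were called, all higher, namely H2BC10, H2BC14, H2BC9, H3C11 and H4C2.

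Against A549 in DMSO, the AD32 4E-BP1 array had 32 histone estimates above 0 and 26 below, with a median of 0.03. No histone gene and no gene at all passed the limma threshold (0%), and 0 histone genes had an unadjusted p under 0.05, where 0.706% of all genes did in the higher direction and 0.432% in the lower. The array lay above all DMSO arrays for 4 genes, against 15.1% of all genes, and below them for 8, against 15.9%. H3C3, at 6.85 against 7.11, 7.01, 7.40 and 7.38, had a difference of -0.38 (SE 0.23). H2AC21 differed by -0.79 (SE 0.54), H1-5 by -0.23 (SE 0.19), H2BC1 by -0.21 (SE 0.21) and H4C14 by -0.35 (SE 0.63). The limma adjusted p was 0.9997 for all 5. H1-4, at 12.44, and H3C11, at 12.001, lay within the range of the DMSO arrays.

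Genes linked to the making and processing of histone mRNA were examined next, from a list of which 24 were measured singly. Besides direct factors the list holds the cell cycle genes E2F1, CCNE1, CCNE2, CDK2 and CDC25A, and the tRNA synthetase gene YARS2. Its median and counts include these genes. None of the 24 passed the limma threshold in any of the 5 comparisons, and their median difference in discodermolide against DMSO was -0.13. NPAT, the activator at histone loci, was at 6.90, 8.39, 8.33 and 8.29 in DMSO and 7.33 and 7.39 in discodermolide (log2 difference -0.62, SE 0.43, limma adjusted p = 0.6683). CASP8AP2 was at 6.31, 7.57, 7.56 and 7.38 against 6.52 and 6.43 (-0.73, SE 0.41, limma adjusted p = 0.5677). SLBP was at 8.03, 9.64, 9.06 and 8.998 against 8.48 and 8.90 (-0.24, SE 0.51, limma adjusted p = 0.929). For all 3 of these genes A549 DMSO replicate 1 was the lowest of the 6 arrays, unlike H1-4 and H3C11.

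ERI1, the exonuclease that trims histone mRNA ends, was at 7.35, 8.40, 9.03 and 8.79 in DMSO and 7.67 and 7.80 in discodermolide. Of the U7 snRNP genes, LSM11 was at 6.54, 6.74, 7.02 and 7.07 against 6.45 and 6.46, below all DMSO arrays (-0.39, SE 0.21, limma adjusted p = 0.5399). LSM10 had a difference of 0.18 (SE 0.24, limma adjusted p = 0.8711) and ZNF473 of -0.10 (SE 0.23, limma adjusted p = 0.9319), with overlapping arrays. In AD32 against A549 in DMSO, ERI1 had a difference of -0.82 (SE 0.36, limma adjusted p = 0.2505), NPAT of -0.23 (SE 0.38, limma adjusted p = 0.8346) and SLBP of -0.29 (SE 0.45, limma adjusted p = 0.8194). None of these factors passed where H1-4, H3C11, H2AC25 or H4C8 did. Over the DMSO arrays the SD was 0.72 for NPAT and 0.60 for CASP8AP2, against 0.18 for H1-4 and 0.30 for H3C11. Fits of these factors without A549 DMSO replicate 1 are not given. The lack of a call therefore does not show that their levels were unchanged.

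Histone variants made outside S phase are encoded by single genes with polyadenylated mRNA in most cases. A list of 12 histone variant genes outside the naming rule had a median difference of -0.23 in discodermolide against DMSO. Of these, 0 of 12 passed the limma threshold in any comparison. Whether each gene of the list is made outside S phase in these cells was not tested. H2AX, the variant phosphorylated at DNA breaks, was at 7.99, 9.04, 8.63 and 8.61 in DMSO and 8.21 and 7.98 in discodermolide (-0.48, SE 0.37, limma adjusted p = 0.7194). The list's mean spanned 8.27 to 8.63 over all arrays, whereas that of the replication-dependent genes spanned 6.50 to 7.83. A list of 26 histone chaperones had a median of -0.39 in the same comparison and no calls in any. The S phase list had -1.72 and the G2/M list -2.45, likewise with no calls in any comparison. The treated arrays lay below DMSO replicates 2 to 4 for 36 of 36 S phase and 30 of 30 G2/M genes, against 20% of all genes. A549 DMSO replicate 1 lay at or below the higher treated array for 29 and 17 of them. Calls in these lists without replicate 1 were not counted.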

How the data were processed

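Total RNA from 10 cultured samples was hybridised to 1 Affymetrix array each. The deposited table holds log2 signals that the authors produced in Affymetrix Expression Console, as the submitters' processing notes state. The log2 scale was judged from the range of the values. Its version, the summarisation, the normalization and the genome build are not given in the sources, nor is whether labelling depended on poly(A) tails, which would affect histone mRNA. Groups came from the cell line and resistance status in the labels.

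The platform annotation gave 1 gene for 19262 of 24308 probe sets, several for 1720 and none for 3326. For 740 genes with over 1 probe set, the one with the highest mean was used. limma 3.58.1 in R 4.3.3 (lmFit and eBayes) was fitted over all 10 arrays and 4 groups, with 6 residual degrees of freedom, two-sided, with adjustment over 18279 genes. Several-gene probe sets were fitted apart. The number of arrays limits the precision, and depth does not apply.

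The histone genes, the 8 gene lists and the tests were chosen with earlier results of these data known. Full statistics are given for histone genes past the threshold, for the smallest p of each class in each comparison, for H1-4 and H3C11. The probe sets naming several histone genes have full statistics in discodermolide against DMSO and ranges elsewhere. NPAT, CASP8AP2, SLBP, LSM10, LSM11, ERI1, ZNF473 and H2AX were named whatever their result, with up to 4 genes of each list past the threshold. Other genes given by array (such as H3C2, H2BC14, H2AC4 and H2BC12) were picked after their values were seen. Of the marker lists, KRT7, CDH1, FOXA1 and FBN1 were higher and COL3A1 lower in AD32 than in A549 in DMSO. On the AD32 4E-BP1 array these genes were at 7.35, 8.885, 6.99, 7.11 and 8.00. Their means were 7.13, 8.92, 7.01, 6.60 and 8.30 in A549 in DMSO, and 11.78, 10.03, 8.00, 9.07 and 6.22 in AD32. A further 11 genes of the naming rule in the RefSeq table were named by no probe set and were not analysed here.

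Scaling was varied by quantile normalization and by centring arrays on their medians. Further alternatives used a block for replicate number, weights for arrays, a robust trended prior, probe set means per gene, only the groups of a comparison, no genes from the lowest 33.3%, the average of A549 DMSO replicates 3 and 4, and each array left out. Deviations of same-numbered arrays from their group means had mixed correlations, from -0.264 to 0.677. Between A549 DMSO and AD32 they were 0.677 for replicate 1, -0.264 for replicate 2 and 0.411 for replicate 3. Arrays of unlike number in these groups reached 0.534. The labels state no pairing, so replicate numbers were not treated as pairs in the main fit, although pairing was not excluded. A549 DMSO replicates 3 and 4 were the most alike of their group (SD of their difference 0.16, against 0.31 for the next pair) and were kept as separate samples. The fit was run on simulated data with independent noise for each value. Those data held no shift of a whole array, so they cannot test how such an array affects the fit. Python 3.11.15 was used for tables and figures.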

Additional observations from a re-analysis of the deposited data

Results flagged for a closer look

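Within the 4 A549 DMSO arrays, 34 values were examined for an array far from the rest. For a value chosen beforehand, chance gives such a gap in about 1 in 20 groups. The 34 values overlap, as single genes also count in the list means, and some genes were picked after their values were seen. That rate therefore does not hold for the set. A549 DMSO replicate 1 stood far below the other 3 in its mean over the histone genes (7.04), the H2A genes (6.78) and the H3 genes (7.58). It also stood far below in its mean over the S phase list (7.02), the G2/M list (6.86), the histone mRNA list (7.59) and the histone chaperones (8.23). Among single genes, replicate 1 stood far below for H2AC4 (8.94), H2BC14 (10.16), H3C11 (11.51) and H3C10 (7.54). A549 DMSO replicate 2 stood far above the others for H4C4 (9.83). A549 DMSO replicate 4 stood far below them for H3C8 (4.69), where all 4 arrays lay within a narrow range.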

How the results depend on the processing

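No result past the threshold, as reported or under the alternative, changed direction. The median histone difference of AD32 4E-BP1 against A549 in DMSO (0.03) changed sign with arrays centred on their median (-0.01), with array weights (-0.05) and without DMSO replicate 1 (-0.10), and some differences near 0 of genes that did not pass changed sign too. The number of histone genes called was 2 in discodermolide against DMSO, 1 in AD32 against A549 in DMSO, 3 in AD32 against treated A549, and 0 in both comparisons of AD32 4E-BP1. With array weights it was 42, 33, 6, 8 and 0 in that order, with 40, 33 and 1 of the first 3 counts lower. Array weights also raised the calls over all genes, to 25%, 23.1%, 10.2%, 7.01% and 0.0164%, and the cause was not tested. With arrays centred on their median the number of histone genes called was 2, 1 and 2 in the first 3 comparisons. With quantile normalization it was 2, 1 and 4. With only the groups compared it was 6, 0 and 1 in the first 3 comparisons, with A549 DMSO replicates 3 and 4 averaged 1, 0 and 1, and the 1 call in AD32 against A549 in DMSO was lost with the lowest 33.3% of genes removed or a trended robust prior (0 each). With the replicate number as a block, a pairing that the labels do not state, the counts were 0, 0 and 1. No paired fit could be made for AD32 4E-BP1. Leaving out 1 array gave 0 to 13 calls in discodermolide against DMSO, with 0 without either treated array, 13 without DMSO replicate 1, 9 without AD32 replicate 3, 5 without AD32 replicate 1 and 1 without DMSO replicate 2, 3 or 4. It gave 0 to 21 in AD32 against A549 in DMSO, with 21 without AD32 replicate 3, 11 without DMSO replicate 1 and 0 without any other. In AD32 against treated A549 it gave 0 to 4, with 0 without either treated array and 1 without DMSO replicate 2, 3 or 4. In AD32 4E-BP1 against AD32 it gave 0 to 5, with 5 without AD32 replicate 3, and against A549 in DMSO 0 throughout. The median histone difference over all alternatives ranged from -1.26 to -0.77, -1.03 to -0.43, 0.05 to 0.50, 0.32 to 0.86 and -0.10 to 0.09. Of the calls, H1-4 in discodermolide against DMSO was lost in 3 settings and H3C11 in 7. Low signals have no detection call, which limits the genes below the lower quartile.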
